A study of Mus musculus with 13 samples.

Results

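Matrix metalloproteinases are secreted or membrane-bound zinc enzymes that cut collagens, elastin and other proteins of the extracellular matrix. Of the 23 genes of the family in the deposited table, 9 were followed here in fibroblasts of mouse lung, namely Mmp2, Mmp3, Mmp9, Mmp11, Mmp12, Mmp13, Mmp14, Mmp19 and Mmp23. They were chosen by name out of 43346 genes, with their values in all 13 libraries. The study set the scarring that follows bleomycin, a drug that injures the lung, beside the growth that follows pneumonectomy, the removal of a lung. It holds 5 libraries of day 30 after bleomycin, 3 of day 14 after bleomycin, 3 of day 14 after pneumonectomy and 2 of sham. The day 30, day 14 and sham libraries came from Col1a1-GFP mice of 8 weeks, in which a collagen promoter drives green fluorescent protein. The pneumonectomy libraries are labelled as primary sorted fibroblasts of lung, with no strain or age in weeks, although the header of the deposited table calls all 4 groups young, and the text on the whole series calls the cells of all 4 groups Col1a1-GFP fibroblasts. All groups started from 200 ng of total RNA. The sham and bleomycin labels alone state 12 cycles of PCR, enrichment of poly(A) RNA and a quality number no lower than 6. Pneumonectomy therefore cannot be told apart from any difference in preparation. The sources used here give no dose of bleomycin, sham procedure, sorting gate or sex of the mice.

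The enzymes are made as inactive precursors, and a propeptide has to be removed before they cut. Tissue inhibitors of metalloproteinases, the Timp proteins, bind the active enzymes, and Reck restrains them at the cell surface. In lung, these enzymes are known for the turnover of interstitial collagen, basement membrane and elastic fibres during repair, fibrosis and emphysema. Transcripts alone were measured here, not enzyme amount or activity.

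The values are RPKM, read numbers divided by gene length and library depth, so that levels of different genes can be set side by side. As inferred from the steps of low values, between 67.5 M and 200.1 M reads lay behind a library. Day 30 libraries had 132.5 M to 200.1 M and those of the other groups 67.5 M to 99.8 M. All 12 listed fibroblast markers were present, with a summed level of 4100 to 4625 RPKM at day 30, 2897 to 3570 at day 14 after bleomycin, 3381 to 5094 after pneumonectomy and 4090 to 5245 in sham. Within that sum the members went different ways at day 14 after bleomycin, where against sham 2 were higher and 7 lower. Col1a1 averaged 1373 ± 230.1 RPKM at day 14 after bleomycin and 554 ± 165 in sham (SD), whereas Dcn averaged 139 ± 26.9 at day 14 after bleomycin and 1619 ± 335 in sham, and Dpt, Col14a1 and Pi16 were also lower (log2 changes -2.76, -3.96 and -4.06, all called). Their part in the decreases of Mmp2, Mmp3 and Mmp23 was not tested. Markers of other cell types were present too. Macrophage markers (14 genes) summed to 220.5 to 770.1 RPKM at day 30, 142 to 499 at day 14 after bleomycin, 27.5 to 47.1 after pneumonectomy and 31.4 to 35.0 in sham, and none of them was at 0 in any library. Endothelial markers (10 genes) summed to 15.8 to 18.4 RPKM at day 30, 275 to 528 at day 14 after bleomycin, 19.7 to 45.1 after pneumonectomy and 22.0 to 26.3 in sham. Epithelial markers (11 genes) summed to 1247 RPKM in day 30 replicate 3 and 502 in pneumonectomy library A, against 8.74 to 98.7 in the other 11 libraries. Xist, transcribed from the inactive X, stood at 19.9 to 29.2 RPKM in the day 30 libraries and the Y-linked Ddx3y at 0, whereas the day 14 bleomycin and the pneumonectomy libraries had Xist at 0.0102 to 0.0126 and 0.00448 to 0.0222 and Ddx3y at 9.91 to 10.5 and 15.9 to 23.8 RPKM. In sham, replicate 1 held 15.9 RPKM of Xist beside 2.14 of Ddx3y, and replicate 2 held 0.0147 beside 11.4. Day 30 cannot be told apart from these sex-linked genes or from the greater depth of its libraries. As RNA was measured in bulk, fewer cells of a type and less RNA per cell cannot be told apart either.

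Differences were tested with limma, 1 linear model over all 13 libraries on log2(RPKM + 0.1) after scaling between libraries. A gene was called at an adjusted p (Benjamini-Hochberg, over all 12938 genes that reached 1 RPKM in at least 2 libraries) under 0.05. All 9 genes passed that minimum, Mmp9, Mmp12 and Mmp13 through bleomycin libraries alone, as did Mmp8, Mmp10, Mmp24, Mmp28 and Runx2 among the other genes described. So did the macrophage markers C1qc, Mrc1, Marco, Itgam and Ptprc, the granulocyte markers Retnlg and Cxcr2 and the endothelial marker Emcn. Log2 changes are given with their standard error, and nothing says whether replicates came from separate mice, so the tests measure the spread between these libraries.

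Most of the 9 genes changed in most comparisons, as did much of the transcriptome. At day 30 against sham, 6 were higher (Mmp9, Mmp11, Mmp12, Mmp13, Mmp14 and Mmp19), 1 was lower (Mmp23) and 2 were not called (Mmp2 and Mmp3). Of all tested genes 28.8% were called there, 14.8% higher and 14.1% lower. At day 14 after bleomycin against sham, 4 were higher (Mmp12, Mmp13, Mmp14 and Mmp19), 4 lower (Mmp2, Mmp3, Mmp11 and Mmp23) and 1 not called (Mmp9). Of all tested genes 63.3% were called, 33.4% higher and 29.9% lower. After pneumonectomy against sham, 5 were higher (Mmp2, Mmp11, Mmp13, Mmp14 and Mmp19), 2 lower (Mmp9 and Mmp23) and 2 not called (Mmp3 and Mmp12). Of all tested genes 42% were called, 22.6% higher and 19.3% lower. Without sham replicate 1, 4 of these 7 pneumonectomy calls were kept.

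Between the treated groups, day 30 against day 14 after bleomycin gave 6 higher (Mmp2, Mmp3, Mmp9, Mmp11, Mmp12 and Mmp23) and 1 lower (Mmp13), with 59.6% of all genes called, 28.9% higher and 30.7% lower. Day 30 against pneumonectomy gave 4 higher (Mmp9, Mmp12, Mmp13 and Mmp23) and 1 lower (Mmp2), with 57.6% of all genes called, 28.5% higher and 29% lower. Day 14 after bleomycin against pneumonectomy gave 4 higher (Mmp9, Mmp12, Mmp13 and Mmp14) and 4 lower (Mmp2, Mmp3, Mmp11 and Mmp23), with 70.8% of all genes called, 36.2% higher and 34.6% lower. Most of all tested genes were called in 4 of these 6 comparisons, and little is read from the counts of metalloproteinase genes there. The RPKM of the compared groups did not overlap for 8 of the 9 genes at day 30 against sham (47.5% of all tested genes), 9 at day 14 after bleomycin against sham (77.8%) and 7 after pneumonectomy against sham (68.3%). They did not overlap for 7 at day 30 against day 14 after bleomycin (60.7%), 8 at day 30 against pneumonectomy (65.5%) and 9 at day 14 after bleomycin against pneumonectomy (80.5%). Overlaps, orders and sums of RPKM are of deposited values, whereas the tests used values multiplied by a factor per library. The factors were 1.18 to 1.23 after pneumonectomy, 0.931 to 0.964 at day 30, 0.849 to 0.908 at day 14 after bleomycin and 1.03 to 1.04 in sham. Scaled values can therefore overlap where deposited ones do not. The median log2 change of the 9 genes was 0.76 at day 30 against sham, 0.63 at day 14 after bleomycin against sham and 0.48 after pneumonectomy against sham, beside medians of -0.0023, 0.024 and 0.0053 over all tested genes.

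**Figure D1:**
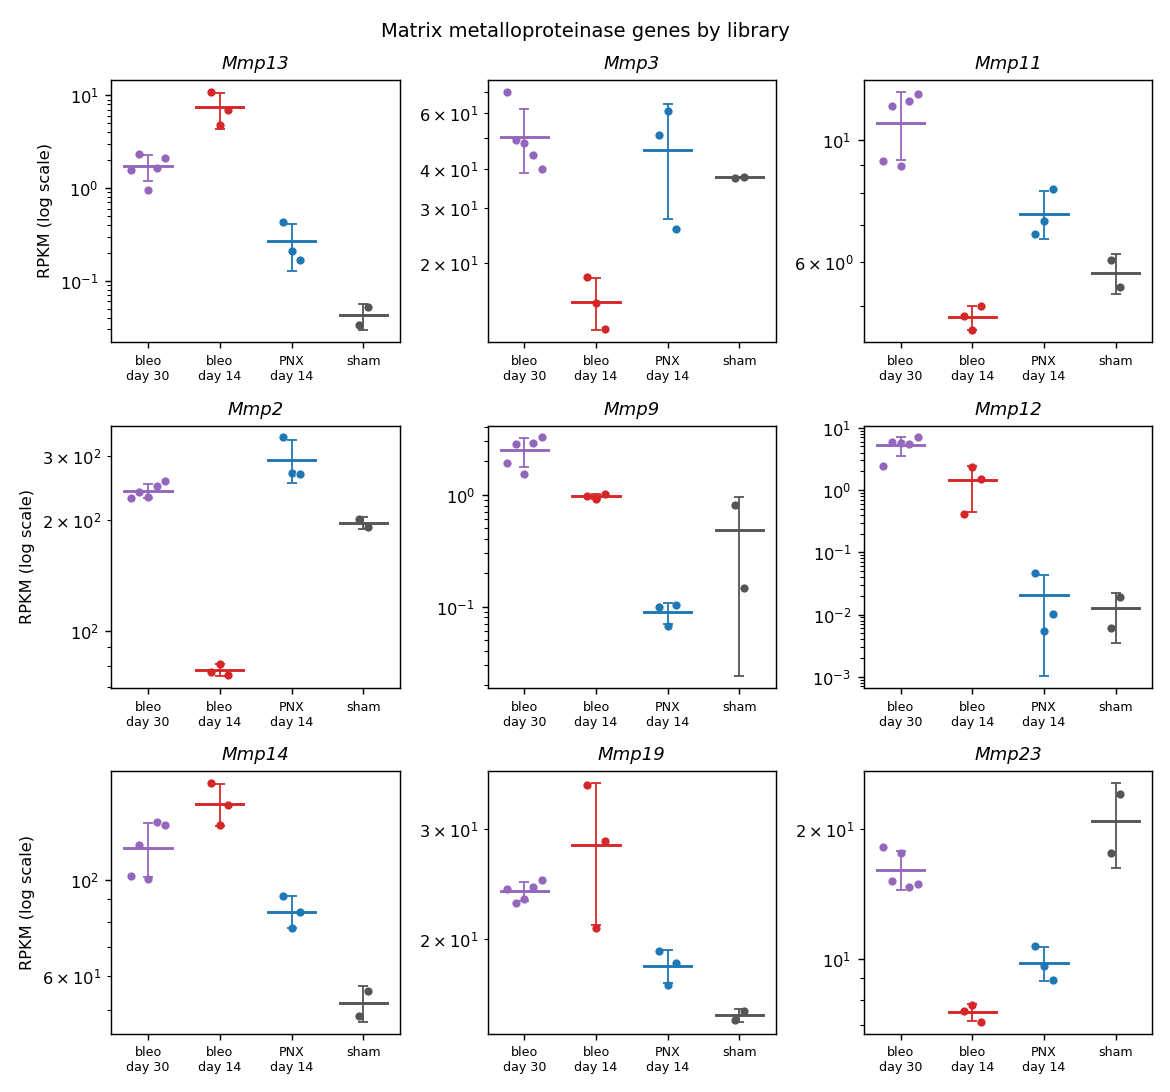
RPKM (log scale) of the 9 metalloproteinase genes in each of the 13 libraries, by group, with bleo for bleomycin and PNX for pneumonectomy. Points are libraries, long bars group means and whiskers the SD. The lower whisker is cut short for Mmp9 in sham and Mmp12 after pneumonectomy, where the SD is close to or above the mean. Mmp12 and Mmp13 lie near 0 RPKM in sham and at 0.409 RPKM or more in every bleomycin library, whereas Mmp2, Mmp3, Mmp11 and Mmp23 are lowest at day 14 after bleomycin.

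Mmp13, Mmp12 and Mmp3 lie in a cluster of 10 metalloproteinase genes on mouse chromosome 9 (GRCm38, from 7272514 to 7699585, 427.1 kb), in the order Mmp13, Mmp12, Mmp1b, Mmp3, Mmp1a, Mmp10, Mmp8, Mmp27, Mmp20 and Mmp7. The sequences just before the transcription start are shown for 5 of them because these neighbours moved in opposite directions. They run 5′ to 3′ on the plus strand and end at the base before the start (RefSeq, GRCm38.p6), with an AP-1 motif (TGANTCA, on either strand) and a TATA box (TATAAA, on the coding strand) in capitals.
Mmp13, chr9:7272394-7272513: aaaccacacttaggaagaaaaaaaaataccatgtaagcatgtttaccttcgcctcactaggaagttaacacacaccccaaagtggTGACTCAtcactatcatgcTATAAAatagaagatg
Mmp12, second start in RefSeq, chr9:7347254-7347373: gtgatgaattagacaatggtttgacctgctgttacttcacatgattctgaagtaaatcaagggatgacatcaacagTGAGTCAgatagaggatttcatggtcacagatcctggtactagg
Mmp3, chr9:7445702-7445821: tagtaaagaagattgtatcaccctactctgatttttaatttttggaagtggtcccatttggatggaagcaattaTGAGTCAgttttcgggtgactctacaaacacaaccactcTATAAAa
Mmp10, chr9:7502222-7502341: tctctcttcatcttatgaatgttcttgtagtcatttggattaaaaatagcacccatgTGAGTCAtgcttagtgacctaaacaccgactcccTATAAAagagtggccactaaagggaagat
Mmp27, chr9:7571276-7571395: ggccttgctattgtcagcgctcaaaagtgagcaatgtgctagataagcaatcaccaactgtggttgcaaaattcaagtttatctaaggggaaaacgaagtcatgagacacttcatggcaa
Counted back from the start, the AP-1 motif of Mmp13 begins at base -35 and its TATA box at -16, those of Mmp3 at -46 and -7, and those of Mmp10 at -63 and -29. Mmp12 has the AP-1 motif at -44 before its second start and no match before its first, and Mmp27 has neither motif in the 250 bases searched. Nor does Mmp8, which was higher after bleomycin, whereas Mmp1a, Mmp1b, Mmp20 and the first start of Mmp7 hold both motifs in genes that reached 0.0144 RPKM at most. AP-1 motifs stood in 6.7% and TATA boxes in 7.6% of the 32851 mouse promoters searched in the same window. Mmp13 and Mmp3, which hold both motifs, moved in opposite directions at day 14 after bleomycin. A match is a description of these letters and not a binding site.

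Mmp13 (chr9:7272514-7283331, plus strand) encodes a collagenase that cuts fibrillar collagen and, with Mmp8, does the work of the interstitial collagenase of other mammals in mice. It stood at 1.58, 2.32, 0.946, 1.66 and 2.14 RPKM at day 30, 11.0, 4.75 and 6.90 at day 14 after bleomycin, 0.430, 0.208 and 0.168 after pneumonectomy and 0.0332 and 0.0520 in sham. Every group was clear of the others: day 14 after bleomycin was highest, followed by day 30 and pneumonectomy, with sham lowest. All 6 comparisons were called. Against sham it was higher at day 30 (log2 change 3.55 ± 0.38, adjusted p = 0.000155), at day 14 after bleomycin (log2 change 5.46 ± 0.41, adjusted p = 7.38e-07) and after pneumonectomy (log2 change 1.49 ± 0.41, adjusted p = 0.0137). It was lower at day 30 than at day 14 after bleomycin (log2 change -1.91 ± 0.33, adjusted p = 0.000422) and higher than after pneumonectomy at day 30 (log2 change 2.05 ± 0.33, adjusted p = 0.000305) and at day 14 after bleomycin (log2 change 3.97 ± 0.37, adjusted p = 2.52e-06).

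Few reads stood behind the sham level of Mmp13, 6 and 10 in the 2 libraries, so the size of the change rests on the sham counts. In reads per depth, it was 40.8 times the sham level at day 30 (95% interval 25.1 to 71.4), 170.3 times at day 14 after bleomycin (104.7 to 298) and 6.33 times after pneumonectomy (3.78 to 11.3), intervals that cover counting error only. With 1 in place of 0.1 added before the logarithm the changes against sham were 1.32, 2.80 and 0.34 in that order, and the pneumonectomy call ended (adjusted p = 0.352), as it did without sham replicate 1 (1.40, adjusted p = 0.0691) or 2 (1.59, adjusted p = 0.0534). With 1 added, the change was 0.98 at day 30 against pneumonectomy and 2.46 at day 14 after bleomycin against pneumonectomy.

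Mmp12 (chr9:7344381-7369499, plus strand) encodes macrophage elastase, named for its substrate and for the cells in which it was found. It stood at 2.41, 5.91, 5.63, 5.46 and 6.98 RPKM at day 30, 0.409, 2.38 and 1.49 at day 14 after bleomycin, 0.0462, 0.00550 and 0.01003 after pneumonectomy and 0.00614 and 0.0192 in sham. Every day 30 library was above every day 14 bleomycin library, and both bleomycin groups were clear of pneumonectomy and sham, which overlapped. The log2 change against sham was 5.43 ± 0.51, adjusted p = 9.42e-05 at day 30 and 3.31 ± 0.55, adjusted p = 0.000286 at day 14 after bleomycin, and the difference between day 30 and day 14 was called as well (log2 change 2.12 ± 0.44, adjusted p = 0.00152). It was also higher than after pneumonectomy at day 30 (log2 change 5.30 ± 0.44, adjusted p = 3.73e-06) and at day 14 after bleomycin (log2 change 3.18 ± 0.49, adjusted p = 0.000126). Pneumonectomy against sham was not called (log2 change 0.12 ± 0.55, adjusted p = 0.874).

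Sham held 3 and 10 reads of Mmp12 and pneumonectomy 25, 3 and 5. In reads per depth Mmp12 was 419 times the sham level at day 30 (95% interval 245 to 786), 117 times at day 14 after bleomycin (68.0 to 219) and 1.62 times after pneumonectomy (0.828 to 3.35). With 1 added before the logarithm, the changes against sham were 2.52 at day 30 and 1.07 at day 14 after bleomycin, and against pneumonectomy 2.50 and 1.05, all still called. The library with the least Mmp12 within each bleomycin group was replicate 1 of both. It also had the lowest sum of macrophage markers in its group, 220.5 RPKM at day 30 and 142 RPKM at day 14. In the bleomycin libraries Lyz2 made up most of the sum, at 149 RPKM in day 30 replicate 1. Cd68, Mrc1, Marco, Siglecf, Ctss and Chil3 were also lowest at day 30 in replicate 1. C1qa (11.5 RPKM), C1qb (7.26), C1qc (3.51), Csf1r (3.36), Fcgr1, Itgam and Ptprc were not. At day 14 all of the markers were lowest in replicate 1. The highest sum at day 30 was in replicate 3 (770.1 RPKM), a library that also held 1247 RPKM of epithelial markers. Mmp12 was highest in replicate 5, with a sum of 541 RPKM. At day 14 replicate 2 was highest in both the sum and Mmp12. Of the 13 macrophage markers tested, 11 were higher and 0 lower against sham at day 30 and at day 14 after bleomycin alike. After pneumonectomy against sham, 0 were higher and 3 lower. C1qc, Mrc1, Marco, Itgam and Ptprc entered the test through bleomycin libraries alone. At day 30 against day 14 after bleomycin, where Mmp12 was called higher, 1 of the 13 markers was higher and 3 were lower. Their part in the Mmp12 result was not tested. Mmp12 overlaps the antisense gene Mmp1b, whose highest level was 0.0144 RPKM. The library kit keeps no strand.

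**Figure D2:**
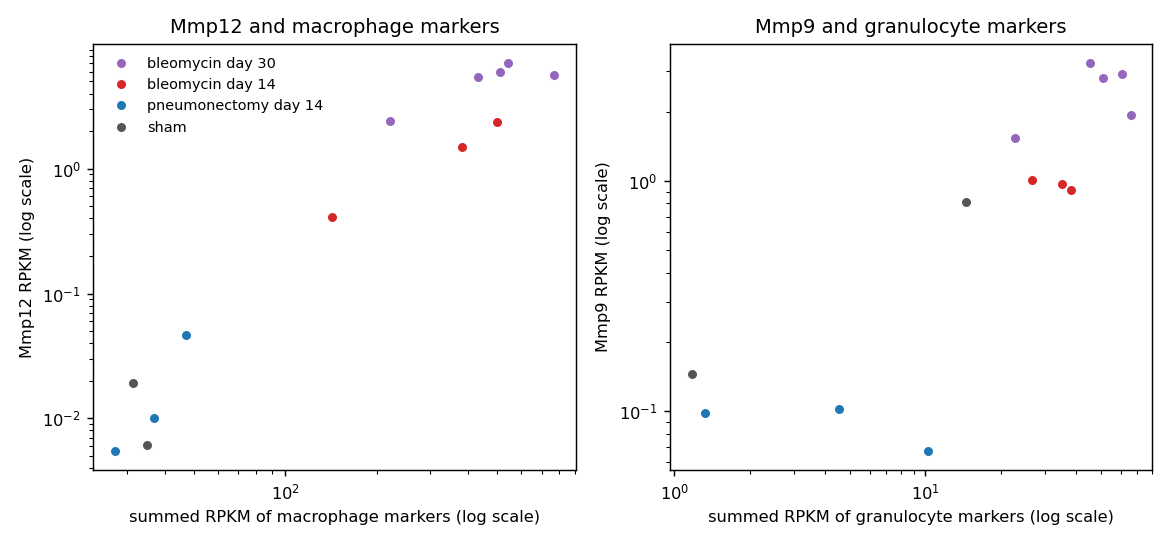
Left, Mmp12 RPKM against the summed RPKM of 14 macrophage markers. Right, Mmp9 RPKM against the summed RPKM of 10 granulocyte markers. All axes are on log scales and each point is 1 of the 13 libraries. The bleomycin libraries lie at the upper right of both plots, and sham replicate 1, with 14.5 RPKM of granulocyte markers, has 0.812 RPKM of Mmp9.

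Mmp3 (chr9:7445822-7455975, plus strand) encodes stromelysin-1, which cuts proteoglycans and fibronectin and can activate other metalloproteinases. It stood at 70.3, 49.3, 48.1, 44.2 and 39.8 RPKM at day 30, 18.1, 14.9 and 12.4 at day 14 after bleomycin, 51.2, 61.1 and 25.7 after pneumonectomy and 37.4 and 37.7 in sham. Day 14 after bleomycin was below every other library, day 30 lay above both sham libraries, and pneumonectomy spanned both groups. Mmp3 was 2.96-fold lower at day 14 after bleomycin than in sham (log2 change -1.57 ± 0.34, adjusted p = 0.00184) and lower than after pneumonectomy (log2 change -1.99 ± 0.31, adjusted p = 0.000116), and it was higher at day 30 than at day 14 (log2 change 1.84 ± 0.27, adjusted p = 0.000131). Day 30 against sham (0.28 ± 0.31, adjusted p = 0.537), pneumonectomy against sham (0.42 ± 0.34, adjusted p = 0.342) and day 30 against pneumonectomy (-0.15 ± 0.27, adjusted p = 0.663) were not called. Pneumonectomy library C was the lowest of its group, and without it pneumonectomy was called higher than sham (0.80, adjusted p = 0.0305). Day 30 against pneumonectomy changed sign without library B (0.12) and on the deposited scale (0.19), in neither case with a call.

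**Figure D3:**
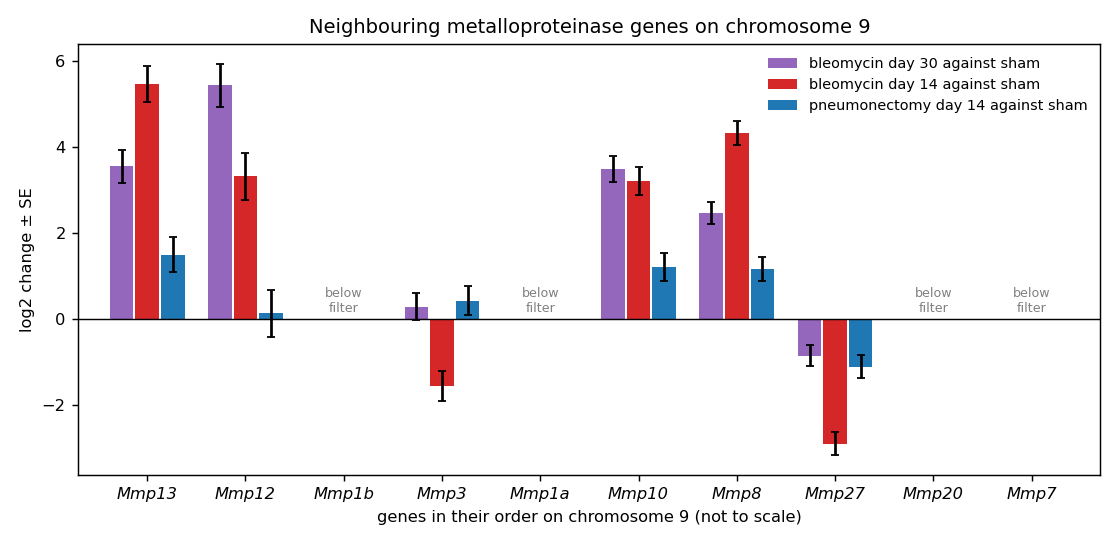
Log2 change against sham (bars) with its standard error for the metalloproteinase genes of the chromosome 9 cluster, in their order along the chromosome and not to scale, for day 30 after bleomycin, day 14 after bleomycin and day 14 after pneumonectomy. At day 14 after bleomycin Mmp13, Mmp12, Mmp10 and Mmp8 were higher and Mmp3 and Mmp27 lower. Genes below 1 RPKM in all or all but 1 of the libraries are marked as below the filter.

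Other genes of the cluster moved both ways as well. Mmp10, stromelysin-2, stood at 0.861 to 1.71 RPKM at day 30, 0.786 to 1.19 at day 14 after bleomycin, 0.0694 to 0.177 after pneumonectomy and 0.00861 and 0.00808 in sham, a level of 1 read in each sham library. It was higher than sham in all treated groups, by a log2 change of 3.47 ± 0.30, adjusted p = 7.74e-05 at day 30, 3.21 ± 0.33, adjusted p = 6.15e-06 at day 14 after bleomycin and 1.20 ± 0.33, adjusted p = 0.0127 after pneumonectomy. The size of these changes depends on the 0.1 added. In reads per depth Mmp10 was 149 times the sham level at day 30 (95% interval 41.2 to 1231), 124 times at day 14 after bleomycin (34.1 to 1025) and 15.3 times after pneumonectomy (4.01 to 129.8). Mmp8, the collagenase known from neutrophils, followed Mmp13 in its order of groups, at 0.603 to 1.23 RPKM at day 30, 3.04 to 4.14 at day 14 after bleomycin, 0.141 to 0.267 after pneumonectomy and 0.0845 and 0.0283 in sham. Its change against sham was 4.31 ± 0.28, adjusted p = 2.58e-07 at day 14 after bleomycin. Mmp27 went with Mmp3 at day 14 after bleomycin (log2 change -2.90 ± 0.27, adjusted p = 2.77e-06 against sham) and was also lower than sham at day 30 (-0.86 ± 0.25, adjusted p = 0.0233) and after pneumonectomy (-1.12 ± 0.27, adjusted p = 0.00647). Mmp1a, Mmp1b, Mmp7 and Mmp20 did not pass the minimum, and Mmp20 was listed at 0 in all 13 libraries.

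Mmp2 (chr8:92827291-92853420, plus strand) encodes gelatinase A, which cuts denatured collagen and type IV collagen of basement membrane and is made constitutively by fibroblasts. It was the most abundant of the 9 genes at day 30, after pneumonectomy and in sham. It stood at 229.9, 239, 231, 248 and 256 RPKM at day 30, 77.2, 81.2 and 75.7 at day 14 after bleomycin, 337, 269.6 and 268 after pneumonectomy and 202 and 192 in sham. No groups overlapped, and pneumonectomy was highest, followed by day 30, sham and, far below, day 14 after bleomycin. Mmp2 was 2.98-fold lower at day 14 after bleomycin than in sham (log2 change -1.58 ± 0.12, adjusted p = 5.15e-07) and 1.72-fold higher after pneumonectomy than in sham (log2 change 0.78 ± 0.12, adjusted p = 0.000331). Day 30 and sham were neighbours that did not differ by the test (log2 change 0.17 ± 0.11, adjusted p = 0.247), although on the deposited scale the change of 0.29, adjusted p = 0.0498 was just called. Day 30 was higher than day 14 after bleomycin (log2 change 1.75 ± 0.09, adjusted p = 7.04e-08) and lower than pneumonectomy (log2 change -0.61 ± 0.09, adjusted p = 0.000187). Day 14 after bleomycin against pneumonectomy had the smallest adjusted p of any of the 9 genes in any comparison (log2 change -2.36 ± 0.10, adjusted p = 2.76e-08). On the deposited scale, day 30 against pneumonectomy was -0.27.

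Mmp9 (chr2:164940780-164955850, plus strand) encodes gelatinase B, known as the inducible gelatinase and as a product of neutrophils and macrophages. It stood at 1.94, 2.82, 1.54, 2.92 and 3.25 RPKM at day 30, 0.974, 0.915 and 1.01 at day 14 after bleomycin, 0.0982, 0.0675 and 0.103 after pneumonectomy and 0.812 and 0.145 in sham. Day 30 was highest and pneumonectomy lowest, and no groups overlapped, although the 2 sham libraries lay far apart. Mmp9 was higher at day 30 than in sham (log2 change 2.30 ± 0.41, adjusted p = 0.00223), than at day 14 after bleomycin (log2 change 1.34 ± 0.36, adjusted p = 0.00672) and than after pneumonectomy (log2 change 3.53 ± 0.36, adjusted p = 1.23e-05). Day 14 after bleomycin was higher than pneumonectomy (log2 change 2.19 ± 0.40, adjusted p = 0.000403) and was not called against sham (log2 change 0.96 ± 0.44, adjusted p = 0.0781). Pneumonectomy was lower than sham (log2 change -1.23 ± 0.44, adjusted p = 0.0439), a call that ended under several settings and without 4 of the 5 libraries compared.

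Without pneumonectomy library A, B or C the decrease against sham was no longer called (-1.29, adjusted p = 0.0716, -1.15, adjusted p = 0.0946 and -1.29, adjusted p = 0.0675), nor with no minimum (-1.21, adjusted p = 0.0838), in a fit of those groups alone (-1.19, adjusted p = 0.16) or with 1 added before the logarithm (-0.39, adjusted p = 0.161). Without sham replicate 1, pneumonectomy against sham was -0.27, adjusted p = 0.553 and day 14 after bleomycin against sham 1.92, adjusted p = 0.000687. Without sham replicate 2 the changes against sham were 1.35 at day 30, 0.01 at day 14 after bleomycin and -2.18 after pneumonectomy. With 1 added Mmp9 also changed by 1.19 at day 30 against sham, 0.85 against day 14, 1.58 against pneumonectomy and by 0.74 at day 14 after bleomycin against pneumonectomy. Granulocyte markers (10 genes) summed to 22.7 to 65.8 RPKM at day 30, 26.7 to 38.3 at day 14 after bleomycin, 1.33 to 10.2 after pneumonectomy and 14.5 and 1.17 in sham replicates 1 and 2. Of their 6 members tested, 5 were higher and 0 lower against sham at day 30 and at day 14 after bleomycin, and 0 were called after pneumonectomy. At day 30 against day 14 after bleomycin, where Mmp9 was called higher, 0 of the 6 were called. Retnlg and Cxcr2 among the 6 entered the test through bleomycin libraries alone. Ly6g, which defines neutrophils, was at 0 in pneumonectomy library A and both sham libraries and reached 0.104 RPKM at most. The part of such cells in the Mmp9 result was not tested.

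Mmp11 (chr10:75923222-75936496, minus strand) encodes stromelysin-3, which furin activates inside the cell, so that it is secreted as an active enzyme. It stood at 9.16, 11.5, 8.96, 11.8 and 12.1 RPKM at day 30, 4.79, 4.52 and 4.99 at day 14 after bleomycin, 6.75, 7.13 and 8.14 after pneumonectomy and 6.06 and 5.40 in sham. No groups overlapped in RPKM, and day 30 was highest, followed by pneumonectomy, sham and day 14 after bleomycin. Against sham Mmp11 was higher at day 30 (log2 change 0.76 ± 0.12, adjusted p = 0.00109) and after pneumonectomy (log2 change 0.57 ± 0.13, adjusted p = 0.00459) and lower at day 14 after bleomycin (log2 change -0.50 ± 0.13, adjusted p = 0.00508). The contrast between the bleomycin times was 2.40-fold (log2 change 1.26 ± 0.10, adjusted p = 1.10e-06), and day 14 after bleomycin was also lower than pneumonectomy (log2 change -1.07 ± 0.12, adjusted p = 6.78e-06).

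Day 30 against pneumonectomy was not called for Mmp11 (log2 change 0.19 ± 0.10, adjusted p = 0.13), but was on the deposited scale (0.53, adjusted p = 0.00103) and with upper-quartile scaling (0.34, adjusted p = 0.018). The decrease at day 14 after bleomycin against sham was no longer called on the deposited scale (-0.26, adjusted p = 0.114) or without sham replicate 1 (-0.42, adjusted p = 0.0518). On the deposited scale, pneumonectomy against sham was 0.35 and day 14 after bleomycin against pneumonectomy -0.61. Mmp11 overlaps Chchd10 on the other strand (0.427 to 5.32 RPKM), and reads from the overlap cannot be told apart. The 120 bases before the start hold 2 GC boxes (GGGCGG, in capitals below) and neither an AP-1 motif nor a TATA box, as do those of Mmp14. In the wider window of 250 bases, 32.7% of all promoters held at least 1 GC box on either strand.
Mmp11, chr10:75932503-75932622, minus strand: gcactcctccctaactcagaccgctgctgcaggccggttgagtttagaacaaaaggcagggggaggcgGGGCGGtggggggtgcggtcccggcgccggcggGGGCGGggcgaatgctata
Mmp14, chr14:54431478-54431597, plus strand: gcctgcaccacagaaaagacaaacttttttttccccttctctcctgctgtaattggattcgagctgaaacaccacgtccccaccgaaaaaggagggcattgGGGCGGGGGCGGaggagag

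Mmp14 (chr14:54431612-54445364, plus strand) encodes the membrane-anchored MT1-MMP, which cuts fibrillar collagen at the cell surface and activates the Mmp2 precursor in a complex with Timp2. It stood at 102, 120.3, 100.2, 136 and 134 RPKM at day 30, 167, 134 and 149 at day 14 after bleomycin, 91.8, 77.3 and 84.0 after pneumonectomy and 48.4 and 55.4 in sham. All treated libraries were above both sham libraries, and day 30 and day 14 after bleomycin overlapped. Group means were 118 ± 17.0 at day 30 (SD, n = 5), 149.8 ± 16.6 at day 14 after bleomycin (n = 3), 84.4 ± 7.25 after pneumonectomy (n = 3) and 51.9 ± 4.95 RPKM in sham (n = 2). Against sham it was higher at day 30 (log2 change 1.06 ± 0.14, adjusted p = 0.000502), at day 14 after bleomycin (log2 change 1.28 ± 0.16, adjusted p = 2.47e-05) and after pneumonectomy (log2 change 0.92 ± 0.16, adjusted p = 0.000807). At day 14 after bleomycin Mmp14 replaced Mmp2 as the most abundant of the 9 genes.

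Neighbours in the order of Mmp14 levels were close. Day 14 after bleomycin was called higher than pneumonectomy (log2 change 0.36 ± 0.14, adjusted p = 0.0374), but not in a fit of those groups alone (0.35, adjusted p = 0.0516) nor without day 14 replicate 1 or 3 or pneumonectomy library B or C (0.25 to 0.38), and it was 0.83 on the deposited scale. Day 30 against day 14 after bleomycin (-0.22 ± 0.13, adjusted p = 0.15) and day 30 against pneumonectomy (0.14 ± 0.13, adjusted p = 0.365) were not called, though on the deposited scale both were, at -0.35 and 0.48.

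Mmp19 (chr10:128790910-128800824, plus strand) encodes an enzyme that cuts basement membrane proteins. It stood at 24.1, 22.9, 23.2, 24.3 and 24.9 RPKM at day 30, 35.3, 20.9 and 28.7 at day 14 after bleomycin, 19.1, 16.9 and 18.4 after pneumonectomy and 14.9 and 15.4 in sham. All treated libraries were above sham, and the day 14 bleomycin group, with the widest spread, lay on both sides of day 30. Mmp19 was higher than sham at day 30 (log2 change 0.54 ± 0.15, adjusted p = 0.0229), at day 14 after bleomycin (log2 change 0.63 ± 0.17, adjusted p = 0.00634) and after pneumonectomy (log2 change 0.48 ± 0.17, adjusted p = 0.0374). None of the treated groups differed from another by the test, with changes of -0.09 ± 0.13, adjusted p = 0.589 at day 30 against day 14 after bleomycin, 0.06 ± 0.13, adjusted p = 0.738 at day 30 against pneumonectomy and 0.14 ± 0.15, adjusted p = 0.403 at day 14 after bleomycin against pneumonectomy.

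The calls of Mmp19 depended on which libraries and scaling were used. The pneumonectomy call ended when any library was left out, with no minimum, and under the upper-quartile (0.35) or deposited scale (0.26). The day 30 call ended without sham replicate 1 (0.52, adjusted p = 0.111) or 2 (0.56, adjusted p = 0.0972), and the day 14 bleomycin call in a fit of those groups alone (0.60, adjusted p = 0.0876). Without day 14 replicate 2, the lowest of its group, day 14 after bleomycin was called higher than pneumonectomy (0.35, adjusted p = 0.01) and day 30 lower than day 14 (-0.30, adjusted p = 0.0197), while without replicate 1 the same changes were -0.06 and 0.11. On the deposited scale Mmp19 was higher than after pneumonectomy at day 30 (0.40) and at day 14 after bleomycin (0.61). Its 3′ end overlaps Tmem198b on the other strand, at 5.97 to 11.6 RPKM, and reads from the overlap cannot be told apart. The antisense gene Gm47093, which has no value in the deposited table, spans the whole of Mmp19.

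Mmp23 (chr4:155650655-155653384, minus strand) encodes a membrane-spanning enzyme without the hemopexin domain that most of the family carries. It stood at 18.2, 15.2, 17.6, 14.7 and 14.9 RPKM at day 30, 7.54, 7.81 and 7.12 at day 14 after bleomycin, 10.7, 9.63 and 8.92 after pneumonectomy and 17.6 and 24.2 in sham. Day 14 after bleomycin was lowest, pneumonectomy came next, and day 30 overlapped with sham, the highest group. All 6 comparisons were called. Against sham Mmp23 was lower at day 14 after bleomycin (log2 change -1.69 ± 0.15, adjusted p = 1.70e-06, 3.24-fold), after pneumonectomy (log2 change -0.86 ± 0.15, adjusted p = 0.000802) and at day 30 (log2 change -0.48 ± 0.13, adjusted p = 0.0204). It was higher at day 30 than at day 14 after bleomycin (log2 change 1.21 ± 0.12, adjusted p = 4.19e-06) or after pneumonectomy (log2 change 0.38 ± 0.12, adjusted p = 0.0155), and lower at day 14 after bleomycin than after pneumonectomy (log2 change -0.83 ± 0.13, adjusted p = 0.000129).

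Without sham replicate 2, the higher of the pair, the day 30 call of Mmp23 ended (-0.25, adjusted p = 0.283), as it did with no minimum (-0.45, adjusted p = 0.0633) and in a fit of those groups alone (-0.48, adjusted p = 0.0502). Day 30 against pneumonectomy ended without pneumonectomy library C (0.30, adjusted p = 0.0745). On the deposited scale this change was 0.72 and that of day 14 after bleomycin against pneumonectomy -0.37.

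**Figure D4:**
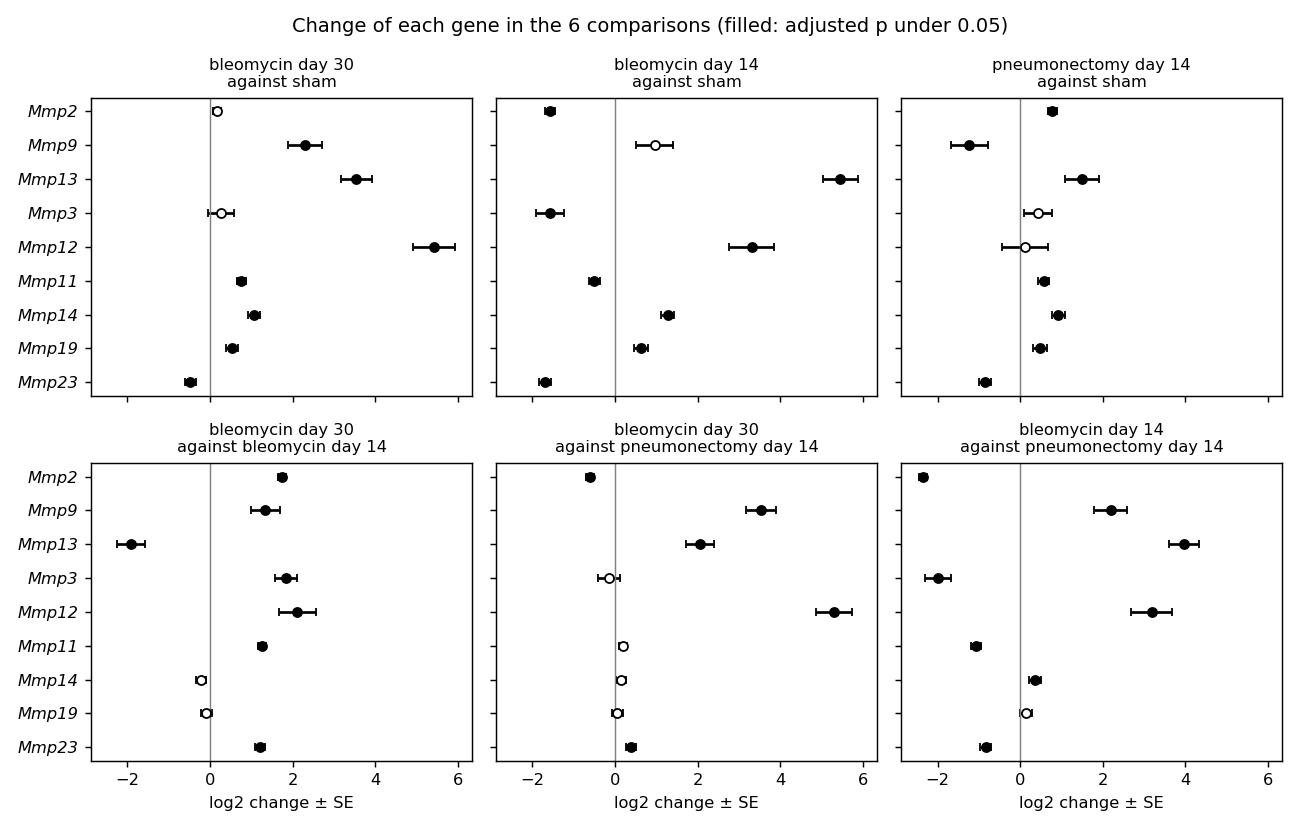
Log2 change with its standard error of the 9 metalloproteinase genes in the 6 comparisons, each panel giving the first-named group over the second. Filled points have an adjusted p under 0.05 in limma over 12938 genes. Day 30 against sham has 6 filled points to the right of 0, while day 14 after bleomycin against sham has 4 on either side.

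Together the 9 genes summed to 438 to 494 RPKM at day 30, 271 to 322 at day 14 after bleomycin, 414 to 517 after pneumonectomy and 327 and 330.2 in sham. What they were made of differed more than their sum. Mmp2 took 50.03% to 52.9% of the sum at day 30, 24.0% to 29.96% at day 14 after bleomycin, 61.0% to 65.1% after pneumonectomy and 61.7% and 58.1% in sham. Mmp14 took 22.2% to 27.8% at day 30, 49.3% to 51.9% at day 14 after bleomycin, 17.5% to 20.3% after pneumonectomy and 14.8% and 16.8% in sham. Between the highest and the lowest group mean, Mmp12 spanned 416-fold, Mmp13 177-fold and Mmp9 27.9-fold, whereas the other 6 genes spanned 1.87-fold to 3.74-fold.

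Over the 13 libraries, which share groups and are deepest at day 30, the scaled log2 levels of Mmp2 and Mmp3 went together most closely (Pearson r = 0.90). Mmp9 and Mmp12 followed (0.89), then Mmp14 with Mmp19 and with Mmp13 (0.86 each). The strongest opposite courses were Mmp13 with Mmp23 (-0.71) and Mmp2 with Mmp13 (-0.69). Among 10114 other protein-coding genes, Itgax (0.985), Ccl6 (0.977) and Lyz2 (0.977), which are known from macrophages and other myeloid cells, were nearest to Mmp12. Nearest to Mmp9 were Csf3r (0.953), the receptor of granulocyte colony-stimulating factor, Mdfic (0.952) and Clec4d (0.941). For Mmp2 they were Gabarapl1 (0.988), Igsf3 (0.987) and Tnfsf13b (0.982), and for Mmp3 Hspa13 (0.969), Cpxm1 (0.963) and Lamp2 (0.955). For Mmp13 they were Rnf149 (0.980), Ptprn (0.979) and Pak1 (0.977), and for Mmp11 Mitf (0.966), Rhbdl3 (0.959) and Dkk3 (0.956). Mmp14 was nearest to Col24a1 (0.977), a collagen gene, Rab31 (0.969) and Foxf2 (0.963), Mmp23 to Lgi2 (0.990), Ang (0.987) and Fam46a (0.985), and Mmp19 to Ncs1 (0.921), Spred1 (0.905) and Cisd2 (0.873). These are descriptions of 13 libraries, with no test.

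Of the 14 other genes of the family, 7 passed the minimum, and the remaining 7, Mmp1a, Mmp1b, Mmp7, Mmp16, Mmp20, Mmp21 and Mmp25, reached 0.833 RPKM at most. The highest value of any of the 14 was 6.87 RPKM, of Mmp15. Outside the cluster, Mmp15, the membrane-type MT2-MMP, was higher at day 14 after bleomycin (3.16, 6.87 and 6.32 RPKM) than in sham (0.545 and 0.409 RPKM, log2 change 2.97 ± 0.53, adjusted p = 0.00045), and Mmp28, epilysin, was higher as well (log2 change 2.30 ± 0.28, adjusted p = 2.17e-05), a gene that reached 1 RPKM in the day 14 bleomycin libraries alone and so entered the test through them. The endothelial markers given above were highest in the same day 14 libraries, with 9 of 10 higher than sham and 0 lower, and their part was not tested. Emcn among them passed the minimum through these libraries alone. Mmp17, which is held in the membrane by a lipid anchor, was higher after pneumonectomy (4.42, 4.72 and 6.25 RPKM) than in sham (3.21 and 2.07 RPKM, log2 change 1.17 ± 0.16, adjusted p = 0.000255). Mesothelial markers (6 genes) summed to 12.5 to 43.5 RPKM after pneumonectomy and 2.02 and 3.13 in sham, and 6 of 6 were called higher. Mural markers (8 genes, of smooth muscle and pericytes) summed to 809 to 1133 RPKM after pneumonectomy and 417 and 827 in sham. Of these, 6 were called higher and 1 lower, and of the 10 endothelial markers 9 were called higher and 1 lower. The part of these cell types was not tested either. Mmp24 was not called against sham at day 30 (0.14 ± 0.12, adjusted p = 0.399), at day 14 after bleomycin (0.30 ± 0.13, adjusted p = 0.0558) or after pneumonectomy (-0.16 ± 0.13, adjusted p = 0.329). It overlaps BC029722 on the other strand (4.14 to 8.48 RPKM), and Mmp28 overlaps 1700020L24Rik (0.344 to 3.69 RPKM). Reads from these overlaps cannot be told apart.

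The inhibitors changed as well. Timp1, which binds most of the secreted enzymes, stood at 66.7, 65.3, 68.6, 75.2 and 67.6 RPKM at day 30, 246, 143 and 205 at day 14 after bleomycin, 56.6, 56.4 and 32.0 after pneumonectomy and 19.8 and 35.7 in sham. It was above sham in every bleomycin library and overlapped with sham after pneumonectomy, and it was called higher at day 30 (log2 change 1.25 ± 0.28, adjusted p = 0.0079), at day 14 after bleomycin (log2 change 2.62 ± 0.31, adjusted p = 1.95e-05) and after pneumonectomy (log2 change 1.04 ± 0.31, adjusted p = 0.0189). Timp2, the partner of Mmp14 in the activation of Mmp2, stood at 339, 312, 318, 279 and 304 RPKM at day 30, 143, 133 and 132 at day 14 after bleomycin, 279.8, 289.7 and 262 after pneumonectomy and 403 and 518 in sham. Every treated library was below both sham libraries, with a log2 change of -0.68 ± 0.12, adjusted p = 0.00251 at day 30, -1.995 ± 0.14, adjusted p = 3.20e-07 at day 14 after bleomycin and -0.50 ± 0.14, adjusted p = 0.0119 after pneumonectomy. At day 14 after bleomycin Mmp2 and Timp2 were both lowest while Mmp14 was highest by group mean.

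Timp3, which stays bound to the matrix, stood at 183, 153, 166, 132 and 145 RPKM at day 30, 58.5, 74.7 and 63.4 at day 14 after bleomycin, 162, 233 and 156 after pneumonectomy and 306 and 231 in sham. It was lower than sham at day 30 (log2 change -0.90 ± 0.19, adjusted p = 0.00528) and at day 14 after bleomycin (log2 change -2.27 ± 0.21, adjusted p = 2.43e-06) and not called after pneumonectomy (log2 change -0.34 ± 0.21, adjusted p = 0.211). Reck, the inhibitor anchored in the membrane, stood at 13.7, 11.6, 11.7, 11.1 and 11.6 RPKM at day 30, 3.88, 4.72 and 4.31 at day 14 after bleomycin, 12.6, 12.4 and 13.7 after pneumonectomy and 22.0 and 20.1 in sham, and was called in all 6 comparisons. It was lower than sham at day 30 (-0.93 ± 0.09, adjusted p = 8.65e-05), at day 14 after bleomycin (-2.51 ± 0.09, adjusted p = 4.39e-08) and after pneumonectomy (-0.48 ± 0.09, adjusted p = 0.00215). Timp4, the least abundant, was lower than sham at day 30 (-1.47 ± 0.36, adjusted p = 0.0119), higher after pneumonectomy (1.25 ± 0.39, adjusted p = 0.0241) and not called at day 14 after bleomycin (-0.09 ± 0.39, adjusted p = 0.862). A2m, a broad inhibitor in plasma, did not pass the minimum.

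The summed RPKM of the 9 metalloproteinase genes over that of Timp1 to Timp4 was 0.882 ± 0.0981 at day 30 (SD, n = 5), 0.733 ± 0.0305 at day 14 after bleomycin (n = 3), 0.899 ± 0.135 after pneumonectomy (n = 3) and 0.434 ± 0.0192 in sham (n = 2). All 11 treated libraries, at 0.714 to 1.03, were above both sham libraries, at 0.447 and 0.420. The inhibitor sum itself changed its make-up, since Timp1 was 11.3% to 15.4% of it at day 30, 40.7% to 54.9% at day 14 after bleomycin, 7.02% to 11.3% after pneumonectomy and 2.70% and 4.54% in sham. A ratio of transcripts does not give the balance of active enzyme and inhibitor.

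**Figure D5:**
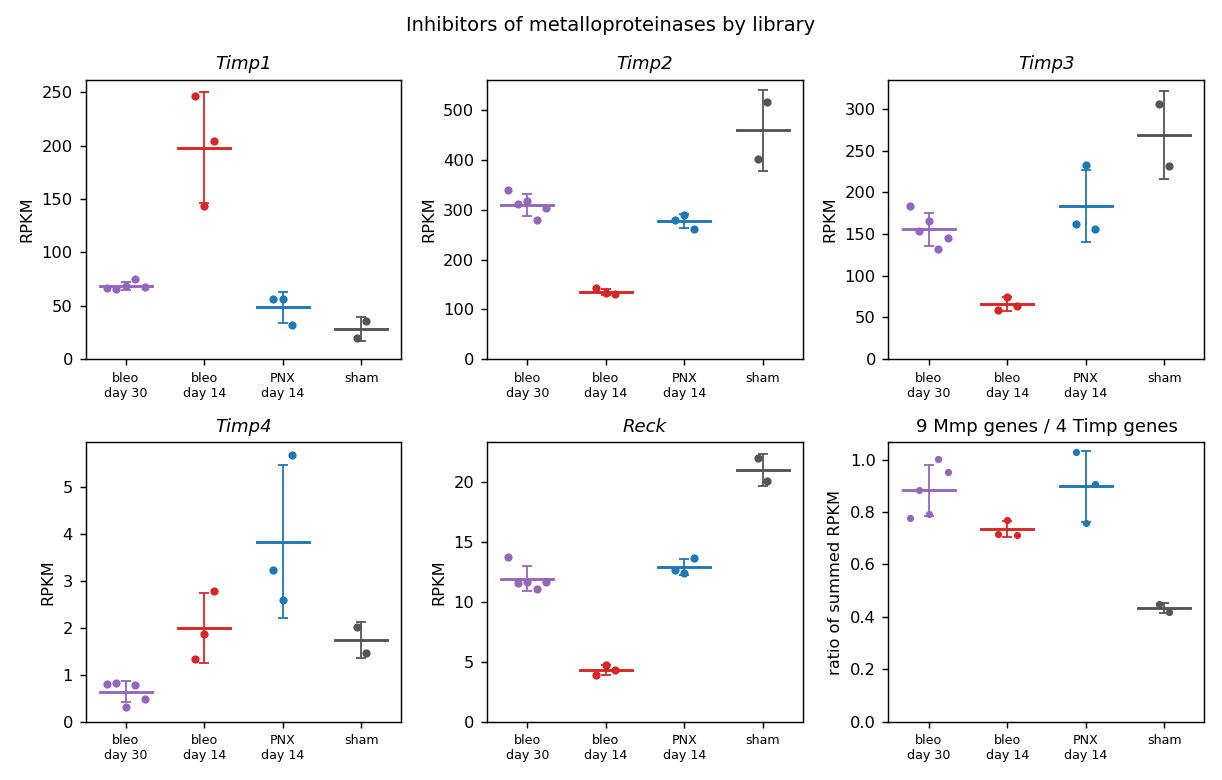
RPKM of Timp1, Timp2, Timp3, Timp4 and Reck in each library, and the summed RPKM of the 9 Mmp genes over that of the 4 Timp genes, by group. Points are libraries, long bars group means and whiskers the SD, and all vertical axes start at 0. Timp1 is highest and Timp2, Timp3 and Reck are lowest at day 14 after bleomycin, and the ratio is lowest in sham.

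Of 16 genes that activate or handle metalloproteinases at the cell surface, 13 passed the minimum. Against sham 4 were higher and 3 lower at day 30, 5 higher and 4 lower at day 14 after bleomycin, and 7 higher and 1 lower after pneumonectomy. These are 7, 9 and 8 called of 13, beside 28.8%, 63.3% and 42% of all tested genes. Plaur, the urokinase receptor, stood at 9.61 ± 0.999 RPKM at day 30, 32.4 ± 1.80 at day 14 after bleomycin, 17.1 ± 1.78 after pneumonectomy and 6.73 ± 2.04 in sham, higher than sham at day 14 after bleomycin (log2 change 2.04 ± 0.17, adjusted p = 1.27e-06) and after pneumonectomy (log2 change 1.59 ± 0.17, adjusted p = 4.13e-05). Cd44, a hyaluronan receptor that can hold Mmp9 and Mmp14 at the cell surface, was higher than sham at day 30 (log2 change 1.30 ± 0.18, adjusted p = 0.000504), at day 14 after bleomycin (log2 change 1.99 ± 0.19, adjusted p = 4.05e-06) and after pneumonectomy (log2 change 1.79 ± 0.19, adjusted p = 4.46e-05). Serpine2, an inhibitor of plasminogen activators and thrombin, was likewise higher at day 30 (1.86 ± 0.22, adjusted p = 0.000255), at day 14 after bleomycin (2.22 ± 0.24, adjusted p = 9.90e-06) and after pneumonectomy (1.36 ± 0.24, adjusted p = 0.00102).

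Furin and Pcsk6 are proprotein convertases, and furin removes the propeptides of Mmp11 and Mmp14. Furin stood at 5.42 ± 0.756 RPKM at day 30, 10.5 ± 0.182 at day 14 after bleomycin, 4.93 ± 0.451 after pneumonectomy and 3.77 ± 0.2398 in sham, and was higher than sham at day 30 (0.38 ± 0.11, adjusted p = 0.0257), at day 14 after bleomycin (1.22 ± 0.12, adjusted p = 5.52e-06) and after pneumonectomy (0.59 ± 0.12, adjusted p = 0.00284). Pcsk6 stood at 10.3 ± 3.46 RPKM at day 30, 0.962 ± 0.397 at day 14 after bleomycin, 5.51 ± 0.232 after pneumonectomy and 29.3 ± 0.254 in sham, and was lower than sham in the same groups (-1.67 ± 0.30, adjusted p = 0.00226 at day 30, -5.08 ± 0.32, adjusted p = 2.44e-07 at day 14 after bleomycin and -2.17 ± 0.32, adjusted p = 0.000365 after pneumonectomy). Lrp1, an endocytic receptor that clears metalloproteinases and their inhibitors, was lower than sham at day 14 after bleomycin (log2 change -1.53 ± 0.16, adjusted p = 8.14e-06) and at day 30 (log2 change -0.47 ± 0.15, adjusted p = 0.036), where its libraries overlapped with sham.

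Of 14 transcription factors known to act on metalloproteinase promoters, all passed the minimum. Against sham 2 were higher and 0 lower at day 30, 6 higher and 6 lower at day 14 after bleomycin, and 10 higher and 0 lower after pneumonectomy. Of all tested genes 14.8% were higher and 14.1% lower at day 30, 33.4% and 29.9% at day 14 after bleomycin, and 22.6% and 19.3% after pneumonectomy. Runx2, which drives Mmp13 in bone, was called in all 6 comparisons and stood at 1.03 ± 0.316 RPKM at day 30, 1.73 ± 0.345 at day 14 after bleomycin, 0.3301 ± 0.0778 after pneumonectomy and 0.119 ± 0.0406 in sham, by group mean the same order as Mmp13. Its change against sham was 2.25 ± 0.28, adjusted p = 0.000299 at day 30, 2.85 ± 0.30, adjusted p = 7.98e-06 at day 14 after bleomycin and 1.15 ± 0.30, adjusted p = 0.0101 after pneumonectomy. Fosl1, a subunit of AP-1, had another order, at 0.903 ± 0.0747 RPKM at day 30, 2.61 ± 0.424 at day 14 after bleomycin, 13.96 ± 4.22 after pneumonectomy and 0.799 ± 0.0356 in sham, and was higher than sham at day 14 after bleomycin (log2 change 1.35 ± 0.22, adjusted p = 0.000249) and after pneumonectomy (log2 change 4.15 ± 0.22, adjusted p = 8.83e-07). The other 6 AP-1 subunits listed, named here after their values were seen, were the 6 called lower at day 14 after bleomycin, Fos (-1.24 ± 0.32, adjusted p = 0.00483), Fosb (-1.68 ± 0.36, adjusted p = 0.00169), Fosl2 (-0.68 ± 0.24, adjusted p = 0.0292), Jun (-1.06 ± 0.25, adjusted p = 0.00264), Junb (-1.19 ± 0.33, adjusted p = 0.0081) and Jund (-0.76 ± 0.28, adjusted p = 0.0322). Their levels were higher than those of Fosl1, with Fos at 232, 224 and 222 RPKM at day 14 after bleomycin and 726 and 279.8 in sham, where the libraries lay far apart. So did Fosb (251 and 85.6), Jun (259 and 129), Junb (417 and 157) and Jund (101 and 47.4) in sham replicates 1 and 2. Jund in sham replicate 2 lay inside its day 14 bleomycin range of 43.3 to 51.7 RPKM. After pneumonectomy the mean RPKM was above sham for Fosb (352 and 168), Fosl2 (77.2 and 26.4), Junb (342 and 287) and Jund (96.6 and 74.3). It was below sham for Fos (397 and 503) and Jun (161 and 194). None of the 14 factors was called lower there or at day 30. The changes of these AP-1 genes were not recomputed with a library left out. Ets1 was higher than sham at day 14 after bleomycin (log2 change 2.33 ± 0.14, adjusted p = 1.42e-07) and after pneumonectomy (log2 change 1.96 ± 0.14, adjusted p = 3.22e-06) and not called at day 30 (log2 change 0.06 ± 0.12, adjusted p = 0.752). Runx1 was higher than sham at day 30 (log2 change 2.54 ± 0.24, adjusted p = 9.92e-05), at day 14 after bleomycin (log2 change 3.67 ± 0.26, adjusted p = 5.12e-07) and after pneumonectomy (log2 change 3.23 ± 0.26, adjusted p = 8.16e-06).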

How the data were processed

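The 13 libraries are of mRNA from lung fibroblasts, made per the labels with TruSeq v2 kits, which keep no strand. The deposited values are RPKM computed by the authors for 43346 genes, 1 column per library, on mm10 (GRCm38) per the submitters' processing notes. No source used here names the aligner, the counter or the annotation. A, B and C stand for the 3 pneumonectomy columns, whose numbers in the header stand in no sample label, so that they could not be matched to single samples. All columns of values were used.

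Trimmed-mean factors (30% of ratios and 5% of levels trimmed) put the libraries on 1 scale, 0.1 was added and log2 taken. The 12938 genes at 1 RPKM or more in 2 or more libraries were fitted with group means in limma 3.58.1 (R 4.3.3; empirical Bayes, trend, robust), from which 6 two-sided contrasts were drawn with Benjamini-Hochberg adjustment. A count model was not used because the values are RPKM. A contrast with the 2 sham libraries assumes that sham varies like the other groups. On simulated data for day 14 after bleomycin against sham (12938 genes, 200 changed) 90% of 2-fold and 96% of 4-fold changes were recovered, and 4.62% of calls were false. The simulated noise was independent, with the same spread in every group. The changed genes went up and down in equal number and were taken from those of higher level. In the data 63.3% of genes were called in this comparison, so these rates do not carry over to it or to genes of low level.

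Depth was read from values under 0.03 RPKM, as multiples of 1 read. The check used 23364 values above 0 of protein-coding genes with few reads in every library. Of these, 96.02% were whole multiples, within 0.01, of the gene's smallest value taken as 1 read or as a pair of reads. That smallest value itself passes by construction. Intervals on reads cover counting error only, and PCR copies are not independent. Gene positions are from GENCODE M21, promoters from RefSeq (GRCm38.p6) for 6 of the 9 genes (Mmp3, Mmp11, Mmp12, Mmp13, Mmp14 and Mmp23). All 37 mitochondrial genes were listed at 0.

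The 9 genes, the gene lists and the rule for naming genes were chosen with earlier results of these data known. All 9 are named, with the other family members that passed the minimum, the inhibitors, up to 6 activation genes and 4 transcription factors called in the most comparisons (ties taken by the smallest p, a choice made after the values were seen), and the 3 genes with the most similar course. Alternatives were 1 in place of 0.1, no minimum, upper-quartile or no scaling, plain empirical Bayes, the compared groups alone, the replicate number as a block and leaving out each library.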

Additional observations from a re-analysis of the deposited data

Results flagged for a closer look

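Among 21 genes (the 9 metalloproteinase genes, 7 others of the family and the inhibitors that passed the minimum), the day 30 libraries were searched for a library far from the rest by Dixon's test at 95%, the only group large enough for it. At that level chance alone can mark a group among so many. None of the 9 genes had such a library, and 3 other genes did. Mmp8 was at 1.23 RPKM in day 30 replicate 5 and at 0.603 to 0.78 in the other day 30 libraries. Mmp15 was at 2.55 RPKM in day 30 replicate 3 and at 0.543 to 0.816 in the others, and the same library held 1247 RPKM of epithelial markers, whose part was not tested. Reck was at 13.7 RPKM in day 30 replicate 1 and at 11.1 to 11.7 in the others.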

How the results depend on the processing

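Of 351 log2 changes of the 9 genes recomputed with a library left out, 322 kept their direction and call, 20 lost the call, 5 gained it and 4 changed sign. Of 351 under the other settings, 323 kept both, 19 lost the call, 8 gained it and 1 changed sign. The changes of sign, all of values without a call, were Mmp12 after pneumonectomy against sham without library A (range over left-out libraries -0.050 to 0.23), Mmp19 at day 14 after bleomycin against pneumonectomy (-0.057 to 0.35) and at day 30 against day 14 (-0.30 to 0.11), both without day 14 replicate 1, and Mmp3 at day 30 against pneumonectomy without library B (-0.54 to 0.12) and on the deposited scale (0.19). The cause was not tested.

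With a library left out, the number of the 9 genes called ran over 5 to 7 at day 30 against sham, 8 throughout at day 14 after bleomycin against sham, 4 to 6 after pneumonectomy against sham, 7 to 8 at day 30 against day 14, 4 to 6 at day 30 against pneumonectomy and 7 to 9 at day 14 after bleomycin against pneumonectomy. A lone sham library was assumed to vary like the other groups. On the deposited scale 8 in place of 5 were called at day 30 against pneumonectomy. That scale moved the median of all genes by 0.11 (day 30), 0.23 (day 14 after bleomycin) and -0.21 (pneumonectomy) against sham, by -0.12 at day 30 against day 14, and by 0.33 (day 30) and 0.45 (day 14 after bleomycin) against pneumonectomy. The share of calls that were higher, in the same order, was 76.4%, 71.6%, 25.4%, 34.8%, 81.1% and 77.4%, against 51.2%, 52.7%, 54%, 48.5%, 49.6% and 51.1% with scaling. Upper-quartile factors gave 35.3% for pneumonectomy against sham and 66.2% for day 30 against pneumonectomy.

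Over all genes, 3731 were called at day 30 against sham, 2349 without sham replicate 1 and 1819 without replicate 2. After pneumonectomy against sham 5430 were called, 3324 without sham replicate 2 and 3530 in a fit of those groups alone. Deviations of same-numbered libraries from their group means had r = -0.127 and -0.105 for day 14 after bleomycin with sham, -0.021 and -0.055 for day 30 with sham, and 0.0057, -0.039 and 0.136 for day 30 with day 14. Deviations within a group are tied to each other, and the 2 of sham are mirror images. These values therefore cannot settle whether the numbers pair libraries. With the replicate block, 2 in place of 7 of the genes (Mmp12 and Mmp13) were called at day 30 against sham, of 361 genes in all, and Mmp9 was no longer called at day 30 against day 14 nor Mmp19 at day 14 against sham. Depth limits the sham levels of Mmp12 and Mmp13, which rest on 3 to 10 reads a library.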
